A study of Mus musculus with 10 samples.

Results

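The broad H3K27Ac domains of formalin-fixed, paraffin-embedded (FFPE) mouse liver were 649 stretches of at least 4000 bp. H3K27Ac is the acetylated form of a lysine in the tail of histone H3. The domains were chosen by peak width in both libraries of 1 condition, FiTAc-seq with homogenization at 65 °C and 5 min of sonication. Each is a peak of the first library (rep1) on chromosomes 1 to 19 that is 4000 bp or wider and overlaps a peak of the second library (rep2) that is also 4000 bp or wider. They made up 1.09% of the 59431 rep1 peaks on these chromosomes and 9.16% of the bases in them, 4001 kb in all. The 9 peak lists together held 344963 peaks.

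The samples were sections of normal mouse liver, and their strain, age and sex are not stated. FiTAc-seq is a chromatin immunoprecipitation and sequencing protocol in which FFPE sections were heated overnight in SDS buffer and then sonicated. Its H3K27Ac libraries were the pair described above and 1 library each at 50 °C with 5 min, 50 °C with 40 min, 65 °C with 40 min and 80 °C with 40 min. Fresh frozen liver, fixed briefly in formaldehyde, gave 1 H3K27Ac library, and FFPE liver treated with proteinase K (FiT-seq) gave 1 H3K27Ac and 1 H3K4me2 library. The FFPE input DNA was not analysed here. Nothing in the labels says whether libraries came from the same or separate animals, so the spread of the pair may be technical. Each condition outside the pair had 1 library, and values are therefore compared without p-values.

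Acetylation of this lysine is laid down by the coactivators CBP and p300 and marks active promoters and enhancers. Wide or densely clustered stretches of it are known from genes that are strongly expressed in a tissue, and in liver these include genes of hepatocyte identity. H3K4me2, dimethylation of another lysine of histone H3, is written by enzymes of the KMT2 family and is found at promoters and enhancers, including those that are poised. The peak lists are on the mouse build mm9. No mm9 sequence or gene annotation was used here, so domains are given by position, and the tissue label was not checked against marker genes.

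The domains had a median width of 5587 bp in rep1, with 4011 bp as the narrowest and 25335 bp as the widest. In rep2, the wide peaks sharing most bases with them had a median of 5223 bp and reached 22436 bp. Both bounds agreed closely in most domains. The stretch common to both peaks was a median of 89.4% of the stretch they spanned together. This share was at least 80% in 469 domains and under 50% in 30. Rep1 was the wider in 386 domains and rep2 in 262. These widths are what the rule used and are given as a description.

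The rule left out 280 rep1 peaks of 4000 bp or more. In rep2, the widest peak meeting them had a median of 3306 bp, and 183 of them met a rep2 peak of at least 3000 bp. The widest rep2 peak met by any of them was 3993 bp, just under the limit. The 21 domains that passed the limit by less than 100 bp had a median deposited value of 53.3, and the 78 rep1 peaks that missed it by at most 100 bp had 46.6. The deposited value is the authors' score of a peak, taken to be the −log10 of the q-value. Fresh frozen peaks covered 34.4% of the bases of the former and 32.0% of the latter, so that no step was seen at the limit.

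The domains were high but not always among the highest peaks of the pair. Their median rank by deposited value was 1233 in rep1 and 1062 in rep2, and 254 domains ranked within 1000 in both. The lowest, on chromosome 15, ranked 12723 in rep1. It met the rule only through the end of a wide rep2 peak that lay mostly in the neighbouring domain. Domains lay on all 19 chromosomes. Their share of rep1 peaks was lowest on chromosome 14, with 0.674%, and highest on chromosome 15, with 1.44%.

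Outside the pair, the lists covered the domains to very different degrees. Both lists of 40 min at 50 °C and 65 °C covered most of the bases. The 50 °C, 5 min list covered less and fresh frozen liver less again. The H3K4me2 list covered almost none.

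**Figure D1:**
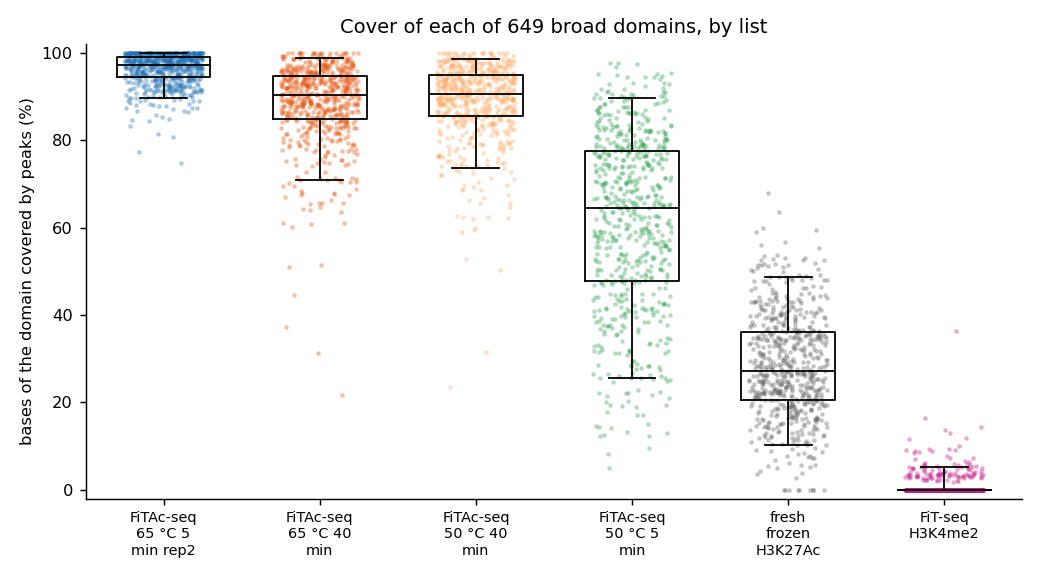
Share of the bases of each domain that lay in peaks of a list, in percent. Each point is 1 of the 649 domains, boxes give the median and quartiles, and whiskers reach the 5th and 95th percentiles. Medians fall from 97.2% in rep2, which the rule used, through 90.3% and 90.6% in the lists of 40 min and 64.4% at 50 °C and 5 min to 27.2% in fresh frozen liver, and the H3K4me2 median is 0.

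Fresh frozen liver had a peak in 640 of the 649 domains, or 98.6% (Wilson 95% interval 97.4 to 99.3). Of all rep1 peaks, 44.1% met a fresh frozen peak, but a wide peak meets another more easily than a narrow one. At the midpoint of the peak, which does not grow with width, the share was 43.6% (39.8 to 47.4) for the domains and 31.7% for all rep1 peaks. These intervals cover counting error only, and neighbouring peaks may depend on each other. In bases, fresh frozen peaks covered 26.5% of the domains. This value was 28.1% for the 778 wide peaks of rep2 alone and 26.8% for the 929 of rep1 alone, an SD of 0.961 points. Of all rep1 peaks, 8.78% lay to at least 80% in 1 fresh frozen peak. No domain could, since the widest fresh frozen peak was 2838 bp and 80% of the narrowest domain is 3209 bp.

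Within the domains, fresh frozen H3K27Ac appeared as rows of short peaks. A domain met a median of 3 fresh frozen peaks, 606 domains, or 93.4%, met 2 or more and the highest number was 9. Such counts grow with width. Of all rep1 peaks 12.3% met 2 or more, and of those of 2000 bp to under 4000 bp 69.8% did. From the first to the last fresh frozen peak, the median domain was spanned to 50.2%. The largest gap between neighbouring peaks had a median of 601 bp. The 2076 fresh frozen peaks in domains had a median width of 408 bp and a median deposited value of 12.1. The 32571 fresh frozen peaks in other rep1 peaks had 411 bp and 12.7. In these values, fresh frozen peaks within domains and in other rep1 peaks were therefore close. The widest fresh frozen peak on chromosomes 1 to 19 was 2838 bp, below the width that defines a domain. Settings of peak calling are not stated, and a difference in calling cannot be told apart from a difference in tissue in any of these widths.

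The bases in fresh frozen peaks changed little with the width of the domain. In the 227 domains of 4000 bp to under 5000 bp the median was 1597 bp per domain. It was 1608 bp in the 159 domains of 5000 bp to under 6000 bp and 1629 bp in the 174 of 6000 bp to under 8000 bp. In the 89 domains of 8000 bp or more, whose median width was 9608 bp, it was 1863 bp. The covered share consequently went from 34.9% through 28.6% and 24.7% to 17.7% of bases. Across the 649 domains, Spearman's rho of domain width with the fresh frozen share was -0.48, and with the shares in the other FiTAc-seq lists it lay between -0.00078 and 0.014. Width is itself the divisor of each share, and domains of 1 list share its depth.

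**Figure D2:**
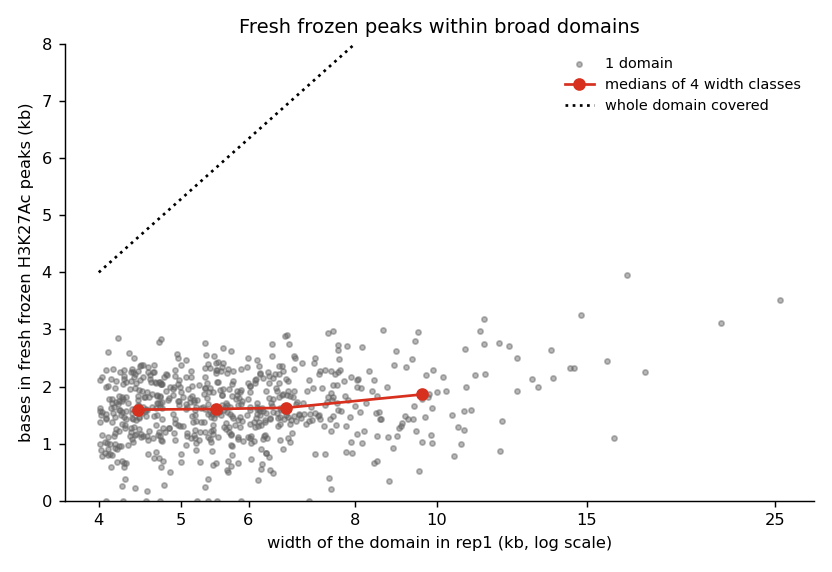
Bases of each domain that lay in fresh frozen H3K27Ac peaks (kb) against the width of the domain in rep1 (kb, log scale). Grey points are domains, red points are the medians of the 4 width classes (1597, 1608, 1629 and 1863 bp), and the dotted line marks full cover, which no domain reached.

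Closing the gaps between fresh frozen peaks did not rebuild the domains. After joining fresh frozen peaks at most 500 bp apart, the regions covered 32.9% of the domain bases and 1 domain lay to at least 80% in 1 region. After joining those at most 2000 bp apart, they covered 42.2%, and 20 domains lay to that extent in 1 region. At this gap, 54 domains, or 8.32%, met a fresh frozen region of 4000 bp or more.

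The 1000 highest fresh frozen peaks lay in domains less often than fresh frozen peaks in general. Of the 100 fresh frozen peaks with the highest deposited value on chromosomes 1 to 19, 0 lay in a domain, which allows a share of up to 3.70% by the Wilson interval. Of the 1000 highest, 11 lay in a domain, or 1.10% (0.615 to 1.96), and of the 5000 highest 185, or 3.70% (3.21 to 4.26). All fresh frozen peaks together lay in domains in 4.39% of cases.

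The 50 °C and 65 °C FiTAc-seq lists covered the wide rep1 peaks more fully than the narrow ones. At 50 °C and 40 min, all 649 domains met a peak, where 63.3% of all rep1 peaks did, and peaks covered 89.1% of the bases. At 65 °C and 40 min, all 649 met a peak, where 61.1% of all rep1 peaks did, and peaks covered 88.6%. With 1 library each, whether these shares differ beyond the spread between libraries cannot be told. Of the 649 domains, 327 were covered more at 50 °C than at 65 °C when sonicated for 40 min. The domain midpoint lay in a peak in 94.6% of cases at 50 °C and 95.2% at 65 °C, where the values over all rep1 peaks were 50.1% and 47.4%.

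The lists of 40 min mostly cut the domains into several peaks. At 50 °C, 585 domains met 2 or more peaks and 155, or 23.9% (20.8 to 27.3), lay to at least 80% in 1 peak. At 65 °C, 589 domains met 2 or more and 151, or 23.3% (20.2 to 26.7), lay to that extent in 1 peak. Among all rep1 peaks, most of them far narrower, 20.8% and 18% lay to that extent in 1 peak. All rep1 peaks met 2 or more in 19.5% and 19.8% of cases. At 2000 bp to under 4000 bp, 25.5% and 24.3% of rep1 peaks were unbroken, close to the domains, and 75.3% and 76.2% met 2 or more. Rep2, which the rule used, met 310 domains with 2 or more peaks and held 81.5% unbroken. The lists of 40 min had 94 unbroken domains in common, 60.6% of the 155 and 62.3% of the 151. These lists have gaps as short as 36 bp between peaks, whereas the pair, the 50 °C, 5 min list and fresh frozen liver have none under 76 bp. When peaks at most 76 bp apart were joined, 35.3% and 34.8% of the domains were unbroken, and when those at most 500 bp apart were joined 92.9% and 92.1%. Of the 305 and 304 peaks of 4000 bp or more in these lists, 81.0% and 83.2% met a domain. Of all their peaks on chromosomes 1 to 19, most of them far narrower, 3.59% and 3.72% did.

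Sonication for 5 min at 50 °C gave the most uneven cover. All 649 domains met a peak, where 35.9% of all rep1 peaks did, and 61.6% of the domain bases were covered, with an SD of 2.27 points between wide peaks of rep1 and rep2 alone. The SD reflects only the choice of domains, and the spread between libraries of either 50 °C condition is unknown. The quartiles over domains were 47.7% and 77.5%, and the range ran from 4.96% to 97.7%. In 56 domains the cover after 5 min exceeded that after 40 min at 50 °C. A domain met a median of 5 peaks and at most 21. The midpoint lay in a peak in 74.7% of domains and 21.3% of all rep1 peaks. In 24 domains, or 3.70% (2.50 to 5.44), 1 peak held at least 80% of the bases, where 3.11% of all rep1 peaks lay to that extent in 1 peak. When peaks at most 500 bp apart were joined, the share of unbroken domains was 38.4%. The 50 °C, 5 min list had 63 peaks of 4000 bp or more, and 62 of them, or 98.4%, met a domain. Of all 38099 peaks of this list on the chromosomes used, most of them far narrower, 8.72% did.

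Domains kept their order in some lists more than in others. Across the 649 domains, the covered shares of both lists of 40 min had a Spearman's rho of 0.74. Between the 50 °C, 5 min list and these lists it was 0.067 and -0.056, and between fresh frozen liver and the other 3 it lay between 0.098 and 0.14. The highest deposited value in each domain followed that of rep1 with a rho of 0.81 and 0.79 after 40 min at 65 °C and 50 °C, 0.60 after 5 min at 50 °C and 0.51 in fresh frozen liver. These are descriptions over domains that share 1 library per list.

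**Figure D3:**
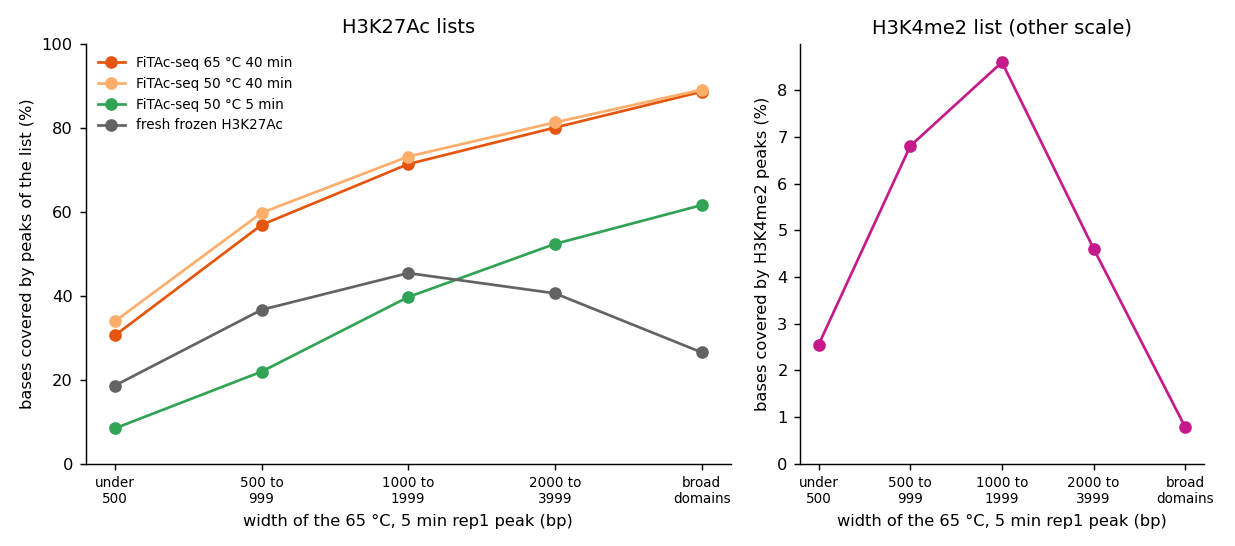
Share of bases covered by each list, in percent, for rep1 peaks grouped by width (bp) and for the broad domains. In the 50 °C and 65 °C lists plotted the share increases with width, fresh frozen liver has its highest value of 45.4% at 1000 bp to under 2000 bp and 26.5% in the domains, and H3K4me2, on its own scale, has 8.60% and 0.778%.

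Compared with rep1 peaks of intermediate width, the domains thus differed by list. In rep1 peaks of 2000 bp to under 4000 bp, the lists of 40 min covered 81.3% of bases at 50 °C and 80.1% at 65 °C, and that of 5 min at 50 °C covered 52.3%, all lower than in the domains. Fresh frozen liver covered 40.6%, higher than the 26.5% in the domains, and had the midpoint of 62.5% of these peaks. The number of fresh frozen peaks per 10 kb was 7.14 in these peaks and 5.19 in the domains. The 3970 peaks of this width had a median deposited value of 43.4 in rep1, and the domains 72.9. In the 280 rep1 peaks of 4000 bp or more that the rule left out, fresh frozen liver was close to the domains. It covered 27.5% of their bases and the midpoint of 44.6%, against 26.5% and 43.6% in the domains.

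H3K4me2 was sparse in the broad domains and in the wide rep1 peaks that the rule left out. A peak of the FiT-seq H3K4me2 list lay in 114 domains, or 17.6% (14.8 to 20.7), where 13.1% of all rep1 peaks met one. In rep1 peaks of 1000 bp to under 2000 bp the share was 37.5% (36.5 to 38.6) and in those of 2000 bp to under 4000 bp 38.2% (36.7 to 39.7), although these are narrower than the domains. H3K4me2 peaks covered 0.778% of the domain bases, 4.61% of the bases at 2000 bp to under 4000 bp and 8.60% at 1000 bp to under 2000 bp. The midpoint lay in an H3K4me2 peak in 7 domains, or 1.08% (0.523 to 2.21), against 4.33% of all rep1 peaks. Of the 280 rep1 peaks of 4000 bp or more that the rule left out, 23.9% (19.3 to 29.3) met an H3K4me2 peak. H3K4me2 peaks covered 1.38% of the bases of these 280 and the midpoint of 2.14%. Of all rep1 peaks, 0.742% lay to at least 80% in 1 H3K4me2 peak. No domain did, but the widest H3K4me2 peak, of 3298 bp, could hold that share of only 26 domains. How these shares compare at another depth of the H3K4me2 library was not tested, since read depth is unknown.

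The share of domains with an H3K4me2 peak also differed by width. By the same 4 width classes, from narrow to wide, it was 23.3%, 16.4%, 17.2% and 5.62%, the last being 5 of 89. An H3K4me2 peak lay in or within 5000 bp of 21.9% of the domains and 27.4% of all rep1 peaks, and the median distances were 32687 and 25644 bp. For rep1 peaks of 1000 bp to under 2000 bp these values were 46.1% and 8717 bp. The 124 H3K4me2 peaks in domains had a median width of 198.5 bp and a median value of 4.99, against 242 bp and 5.52 over all H3K4me2 peaks on chromosomes 1 to 19. Of these 124 peaks, 74 had their midpoint in the central 50% of the domain, and 1 reached past an end. Fresh frozen cover was a median of 30.5% in the domains with H3K4me2 and 26.6% in those without. The former were also narrower, with a median of 5211.5 bp against 5678 bp, and fresh frozen cover was higher in narrower domains.

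**Figure D4:**
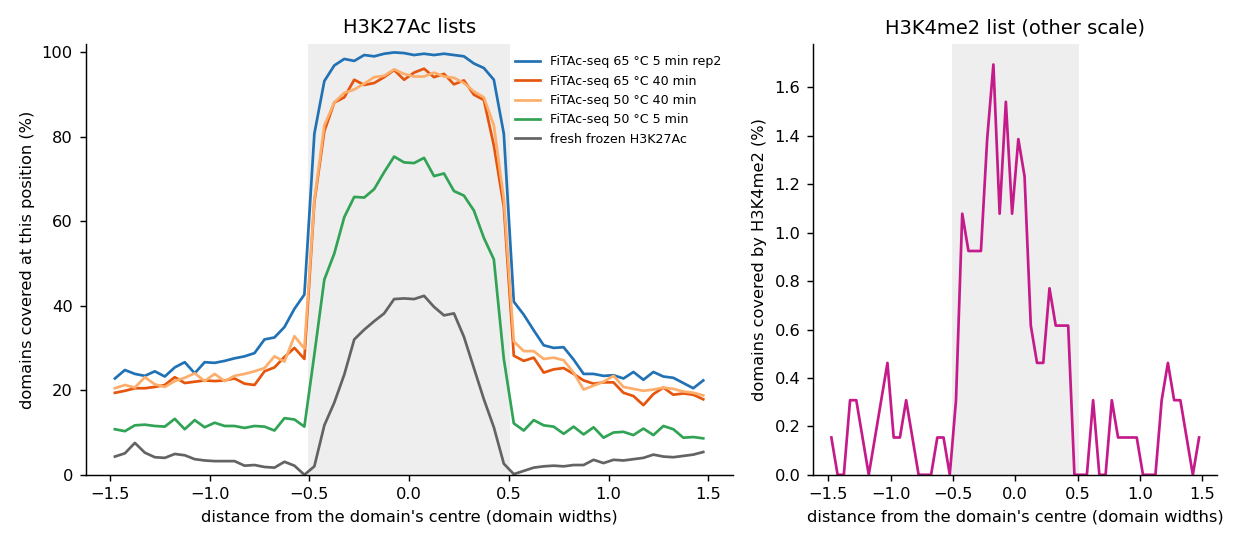
Share of the 649 domains covered by a peak of each list, in percent, at 20 steps across the domain and across flanks of 1 domain width on either side. Grey marks the domain, whose ends rep1 sets. Fresh frozen liver covers up to 42.4% of domains near the centre and 2.31% at the outermost steps, and the H3K4me2 list, on its own scale, at most 1.69%.

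Along the domains, the other lists differed in how far they reached toward the ends. At the 2 outermost of 20 steps, the lists of 40 min covered 65.2% of domains at 50 °C and 64.0% at 65 °C, that of 5 min at 50 °C covered 28.0% and fresh frozen liver 2.31%. At the 2 central steps the values were 94.6%, 94.4%, 73.9% and 41.7%. The outermost peak of a list ended a median of 39.5 bp and 45.5 bp inside the domain after 40 min at 50 °C and 65 °C. This inset was 297 bp after 5 min at 50 °C and 1191 bp in fresh frozen liver. Only 4 of 1280 domain ends were passed by a fresh frozen peak. In the flanks of 1 domain width, fresh frozen peaks covered 3.31% of positions on average and the 50 °C, 40 min list 23.6%, against 28.4% and 89.1% inside.

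The lists with few peaks differed from each other. The 80 °C, 40 min list had 55 peaks on chromosomes 1 to 19, and 24 of them lay in a domain, or 43.6% (31.4 to 56.7). They met 23 domains, or 3.54% (2.37 to 5.26), where 0.0841% of all rep1 peaks met an 80 °C peak. Wide peaks meet others more easily, so these shares are not alike in width. In bases, 80 °C peaks covered 0.106% of the domains and 0.0219% of all rep1 peaks. The midpoint lay in an 80 °C peak in 0 domains and in 0.0135% of all rep1 peaks. A further 15 of the 80 °C peaks lay in rep1 peaks of 2000 bp to under 4000 bp and 9 in rep1 peaks under 2000 bp. The 23 domains had a median mean rank of 108.5 in the pair, against 1217.5 for all domains, and a median width of 6648 bp. The 80 °C peaks in them were short, with a median width of 157.5 bp, and had deposited values of 3.43 to 9.62 with a median of 5.47. The whole list was alike, with medians of 164 bp and 5.62 over its 55 peaks on these chromosomes. The FiT-seq H3K27Ac list, with 112 peaks on these chromosomes, met 0 domains, which allows up to 0.588% by the Wilson interval. It met 0.0757% of all rep1 peaks.

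**Figure D5:**
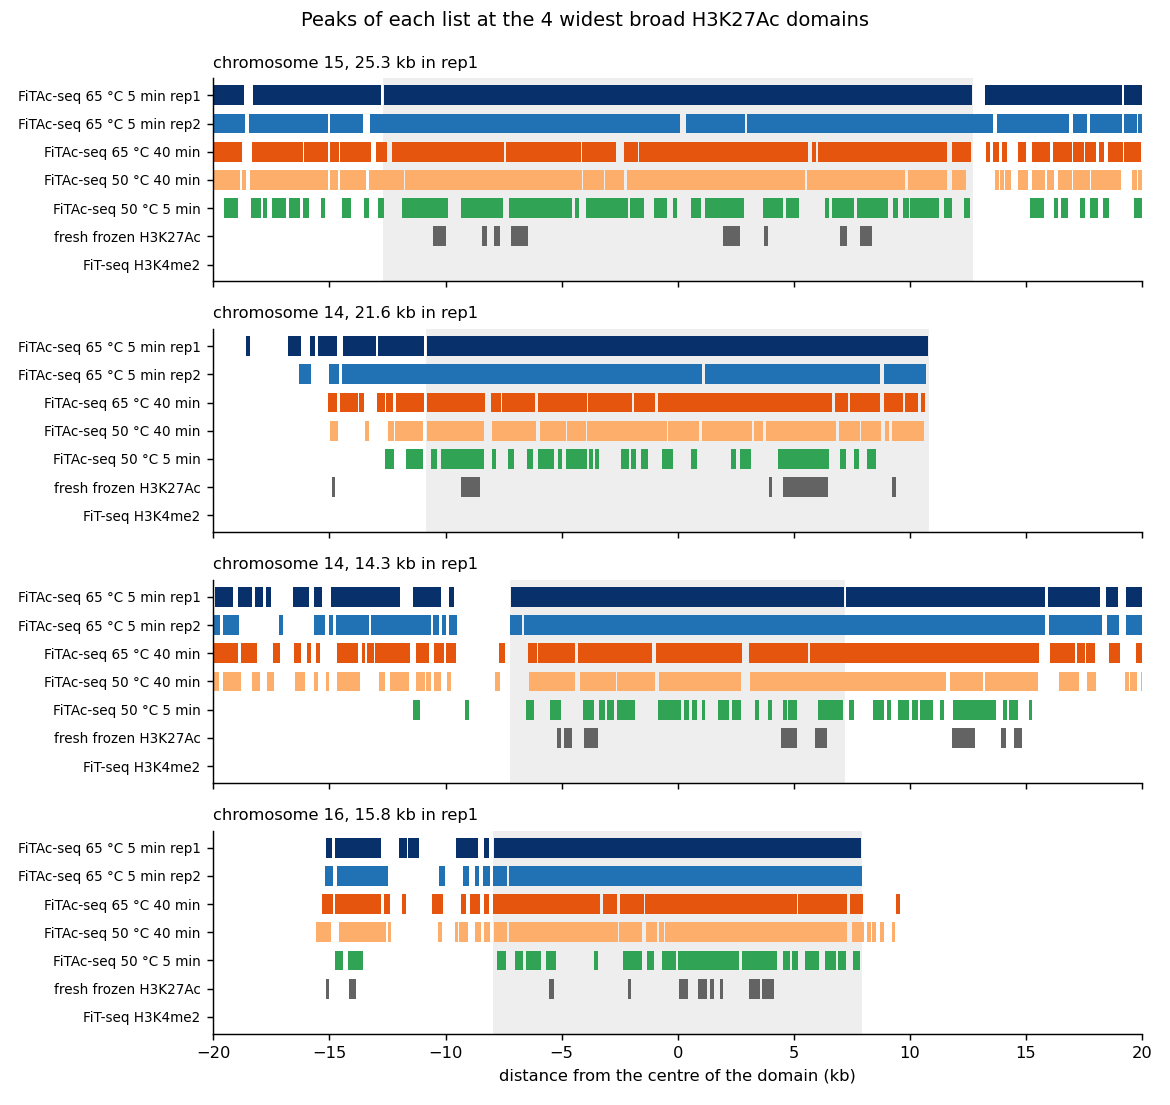
Peaks of 7 lists around the 4 widest domains by the mean width of both libraries, by distance from the domain centre (kb). Each bar is a peak, and grey marks the domain in rep1. The domain of 25335 bp on chromosome 15 holds 21 peaks at 50 °C and 5 min, 8 fresh frozen peaks and 0 H3K4me2 peaks.

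The widest domain by the mean of both libraries lay at chromosome 15, 58815293 to 58840627. It spanned 25335 bp in rep1, while the rep2 peak that met most of it spanned 13352 bp. The lists of 40 min covered 96.4% of it with 8 peaks at 50 °C and 94.7% with 9 at 65 °C, and that of 5 min at 50 °C covered 71.6% with 21. Fresh frozen liver had 8 peaks there, of at most 759 bp, which covered 13.9%. It belonged to a run of 4 domains, from 58809658 to 58855129, with gaps of 103 to 573 bp and domains over 98.2% of its 45.5 kb. Of the 4, those at 58809658 to 58815167 and 58841201 to 58847085 met the rule only at their ends. There they overlapped rep2 peaks of 13352 and 10605 bp that lay mostly in the widest domain. Other rep2 peaks in these 2 were under 4000 bp. Fresh frozen liver had 10 peaks in this run, which covered 9.55%, and it had no H3K4me2 peak.

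The next lay at chromosome 14, 70733827 to 70755380, with 21554 bp in rep1 and 15533 bp in rep2. It was covered to 47.6% at 50 °C and 5 min and to 14.4% in fresh frozen liver, where 1 peak of 1937 bp was the longest of 4. It also held a peak of the 80 °C list. A pair of neighbours on chromosome 14, 21913224 to 21927551 and 21927654 to 21936192, met the same rep2 peak of 22436 bp. Their 14328 and 8539 bp were covered to 49.7% and 56.9% at 50 °C and 5 min and to 16.2% and 18.3% in fresh frozen liver. At chromosome 16, 23979061 to 23994882, the widths were 15822 and 15205 bp. This domain ranked 13 in rep1 and 82 in rep2, and 8 fresh frozen peaks covered 15.5%.

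Of the other wide domains, chromosome 6 held a pair, at 90411034 to 90424653 and at 90495907 to 90508825. The first was covered to 60.8% at 50 °C and 5 min and the second to 40.8%. At chromosome 9, 43036738 to 43049152, the longest peaks of the lists of 40 min spanned 11193 bp at 50 °C and 12904 bp at 65 °C, whereas fresh frozen liver covered 20.1%. Chromosome 9, 34921129 to 34937864, had the highest fresh frozen share of the 10 widest, with 23.6%, and 84.6% at 50 °C and 5 min. Chromosome 7, 106303960 to 106321525, had the lowest, with 12.9% from 8 peaks of at most 424 bp, and its 50 °C, 5 min share was also the lowest, with 39.0%. The lists of 40 min covered it to 97.6% and 98.6%. None of these 10 domains had an H3K4me2 peak.

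The domains with the highest mean rank in the pair were not the widest ones. The first, chromosome 7, 38967744 to 38971966, ranked 1 and 2 and spanned 4223 bp. It had the highest H3K4me2 share of all domains, with 36.4% from 1 peak of 1538 bp, and 43.3% in fresh frozen liver. Chromosome 11, 86390899 to 86403036, spanned 12138 bp, ranked 4.5 and 4, and was covered to 94.0% at 50 °C and 5 min but to 22.4% in fresh frozen liver. At chromosome 8, 96909004 to 96915580, these shares were 71.6% and 28.2%. Chromosome 17 held the other two, at 34255121 to 34260723, where 1 fresh frozen peak of 2679 bp covered 47.8%, and at 46991451 to 46995911, with 43.7%.

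In fresh frozen liver, 9 domains had no peak. Their median width was 5222 bp, against 5587 bp for all domains. Their deposited values in rep1 ran from 17.3 to 42.3, against a median of 72.9 for all domains. Their median cover at 50 °C and 40 min was 85.3%, and none had an H3K4me2 peak. The widest were chromosome 15, 7090272 to 7097335, with 28.9% at 50 °C and 5 min, and 2 members of the chromosome 15 run, 58841201 to 58847085 and 58809658 to 58815167. These 2 members met the rule only through the end of a wide rep2 peak that lay mostly in the widest domain. Next came chromosome 8, 41975071 to 41980452, with 14.2% after 5 min at 50 °C but 95.1% after 40 min at 65 °C, and chromosome 7, 77508200 to 77513421. At the other end, fresh frozen liver covered 67.8% of chromosome 8, 98408510 to 98412719, and 63.6% of chromosome 12, 80657830 to 80661935. It covered 60.0% of chromosome 1, 138841981 to 138846709, with a single peak of 2838 bp. Chromosome 19, 26678233 to 26682576, had 59.4% and chromosome 1, 9535437 to 9540149, had 59.0%. These 5 spanned 4106 to 4729 bp in rep1.

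After the chromosome 7 domain, the highest H3K4me2 share was 16.5%, at chromosome 1, 90170228 to 90177028. It came from 1 peak of 1123 bp that ranked 145 in its list. This domain was covered to 69.3% and 70.8% by the lists of 40 min, below the lower quartiles of 85.5% and 84.8%. The next were chromosome 11, 75344099 to 75348349, with 14.4%, chromosome 10, 67737290 to 67743701, with 13.8%, and chromosome 6, 134513592 to 134517726, with 13.0%. The widest domains with an 80 °C peak, after that on chromosome 14, lay at chromosome 19, 5839720 to 5851545, and chromosome 5, 143574609 to 143585952 and 123584168 to 123594989. The last was chromosome 17, 45724697 to 45734539. Their 50 °C, 5 min shares were 76.6%, 85.3%, 79.1% and 58.5%, in that order.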

How the data were processed

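Reads were aligned with BWA and peaks called with MACS2 on mm9, per the submitters' processing notes, with 1 list per library. Versions, thresholds and use of the input are not given in the sources used here. Each deposited peak has a position and a value, taken as the −log10 of a q-value from its steps and its lower end near 2. It depends on depth, which is unknown, and was only ranked and filtered within a list. Libraries were made with either of 2 kits, and the labels do not say which had which.

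Starts are 1-based. A domain met a list at an overlap of 1 bp or more, and was called unbroken where 1 peak held 80% of its bases. Intervals printed are Wilson 95% intervals of counted shares, and covered bases carry none. The background of a share of domains is the share over all rep1 peaks on chromosomes 1 to 19. No test compares conditions. Regions named are the 10 widest, the 5 of highest mean rank, the 5 of lowest and highest fresh frozen share, the 5 of highest H3K4me2 share and up to 5 with an 80 °C or FiT-seq H3K27Ac peak. The domains and settings were chosen with earlier results of these data known. The planned gene lists were not run, because no mm9 annotation was used here. The interval steps were tested on simulated lists. Intervals came from scipy 1.17.1, overlaps from numpy 2.4.6 and pandas 2.3.3 under Python 3.11.15, and plots from matplotlib 3.10.9.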

Additional observations from a re-analysis of the deposited data

How the results depend on the processing

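With a minimum width of 3000 or 6000 bp there were 1428 or 182 domains, and with peaks merged within 500 bp in every list 1782. Either library alone gave 778 to 929. With an overlap of at least 50% of the shorter peak required, 643 domains remained. No paired analysis was possible because only 1 condition had 2 libraries.

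At 3000 and 6000 bp, the shares of domains met were 97.3% and 99.5% in fresh frozen liver, 24.2% and 12.1% for H3K4me2 and 2.24% and 6.59% at 80 °C. Covered bases were 30.3% and 21.3% in fresh frozen liver, 1.43% and 0.423% for H3K4me2, 87.8% and 91.0% in the 50 °C list of 40 min, 87.2% and 90.3% in the 65 °C list of 40 min, and 0.0865% and 0.151% at 80 °C. At 6000 bp they were 64.2% at 50 °C and 5 min, and unbroken domains were 2.20% there and 18.7% at 65 °C and 40 min. With the midpoint rule, the shares met were 43.6% in fresh frozen liver, 1.08% for H3K4me2, 74.7% after 5 min at 50 °C, 94.6% and 95.2% after 40 min at 50 °C and 65 °C, and 0 at 80 °C.

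In the part common to both libraries, covered bases were 29.5% in fresh frozen liver, 0.879% for H3K4me2, and 65.7%, 92.1% and 91.5% at 50 °C with 5 min, 50 °C with 40 min and 65 °C with 40 min. Unbroken domains were 5.86%, 31.4% and 33.4% in these 3. With peaks merged within 500 bp in the other list, covered bases were 32.9% in fresh frozen liver, 0.821% for H3K4me2, and 72.9%, 95.3% and 94.8% in these 3, where unbroken domains were 38.4%, 92.9% and 92.1%. With gaps of up to 76 bp closed, a setting chosen after seeing the data, unbroken domains after 40 min were 35.3% and 34.8%. With values of at least 5, H3K4me2 met 9.24% and the 80 °C list 2.16%, and covered bases were 25.3% in fresh frozen liver, 0.465% for H3K4me2, 56.4% at 50 °C and 5 min and 0.0641% at 80 °C.

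Domains from either library alone gave covered bases of 26.8% to 28.1% in fresh frozen liver, 0.929% to 0.954% for H3K4me2, 59.0% to 62.2% after 5 min at 50 °C, 87.9% to 89.6% and 87.2% to 89.0% after 40 min at 50 °C and 65 °C, and 0.0895% to 0.113% at 80 °C. Unbroken domains at 50 °C and 40 min were then 20.2% to 24.2%. The other 118 of 175 recomputed shares stayed within the Wilson interval of the value reported or, for covered bases, within the SD between domains of either library alone, which holds no spread between libraries of the other lists. Read depth is unknown, and its part in any of these shares was not tested.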

Other observations

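Some broad domains had a broad neighbour. With gaps of up to 5000 bp allowed, 80 of the 649 domains, or 12.3%, fell into 37 runs, of which 32 held 2 domains and 5 held 3 or more. After the run of 4 on chromosome 15, the longest run of 3 lay at chromosome 2, 164246731 to 164271480. The 50 °C, 40 min list covered 70.6% of its 24.8 kb and the 65 °C, 40 min list 85.1%, while fresh frozen liver covered 18.4%. The run of 3 at chromosome 7, 71039329 to 71059891, had gaps of 96 to 206 bp and was covered to 74.3% at 50 °C and 5 min and to 19.5% in fresh frozen liver. Neither of these 2 runs had an H3K4me2 peak. The runs were looked for after the domains had been seen.

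Both lists of 40 min covered under 50% of 2 domains, singled out after their values were seen. At chromosome 6, 38070097 to 38074812, the shares were 23.6% at 50 °C and 21.8% at 65 °C, with 78.7% at 50 °C and 5 min. The peaks at 40 min there were at most 278 and 314 bp wide, and fresh frozen liver had none. At chromosome 1, 164912863 to 164918846, the shares were 31.6% and 31.4%, with 17.1% at 50 °C and 5 min and 18.6% in fresh frozen liver. Beyond chromosomes 1 to 19, the same rule gave 3 domains on chromosome X and 0 on chromosome Y.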
